A study of Mus musculus with 14 samples.

Results

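The platelet-derived growth factor (PDGF) family comprises 2 receptor genes, Pdgfra and Pdgfrb, and 4 ligand genes, Pdgfa, Pdgfb, Pdgfc and Pdgfd. The 6 members were taken by gene symbol from a table of 23427 genes. Pdgfra, Pdgfa and Pdgfc passed a filter of at least 1 FPKM in 2 or more of the 14 libraries, as did 11874 genes in all, whereas Pdgfrb, Pdgfb and Pdgfd did not. FPKM are fragments corrected for a gene's exon length and for how many fragments its library holds, so that levels of different genes can be compared per length.

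PDGF ligands are secreted as dimers and bind receptor tyrosine kinases at the cell surface. Binding brings receptors together and starts signalling through phosphatidylinositol 3-kinase, phospholipase C gamma and the RAS to ERK cascade. In the brain, Pdgfra marks oligodendrocyte precursor cells (OPCs), the dividing cells that give rise to myelin-forming oligodendrocytes (OLs). PDGF-AA, the dimer made from Pdgfa, keeps OPCs alive and dividing, and its removal favours differentiation. PDGF-CC, made from Pdgfc, also binds the alpha receptor, whereas Pdgfrb is typical of pericytes and Pdgfb of endothelial cells.

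All 14 libraries came from primary OPCs of C57BL/6J mice, isolated from cortices of pooled early postnatal pups on dishes coated with an antibody against the Pdgfra protein. Every group was thus selected through a member of the family. By the methods, cells were grown with PDGF-AA and CNTF, and differentiation was started by taking PDGF-AA away and adding the thyroid hormone T3. The labels' growth protocol instead names DMEM with serum, so which medium held for these libraries is not settled. The 7 groups of 2 libraries were Day0 and, at Day3, non-treated, mock (transfection without siRNA), NC siRNA #1 and NC siRNA #2 (non-targeting), siSbp2l and siPdgfra. The genotype was WT for the first 5 groups, and the label was Secisbp2l knockdown for siSbp2l and Pdgfra knockdown for siPdgfra. The label also names the source a cell line, but the methods describe primary cells. An siRNA lowers the mRNA it matches. Secisbp2l (Sbp2l) encodes a protein related to the selenocysteine insertion factor Sbp2.

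The libraries held from 6560877 (NC siRNA #2 replicate 2) to 31621092 (Day0 replicate 1) fragments, as recovered from the steps between low FPKM values. The labelled cell type was checked with marker lists. Of 20 OPC genes, 19 passed the filter, while none of 7 endothelial and none of 6 meningeal fibroblast markers did, and Cldn5 and Cdh5 were at 0 in every library. Of the pericyte and smooth muscle markers, 2 of 12 passed (Mcam and Notch3), and Des was at 0 throughout. Astrocyte markers passed in 5 of 7 cases, with Gja1 and Aqp4 below the filter, neuron markers in 4 of 8 and microglia markers in 2 of 7, with Tyrobp at 0 in every library. The non-treated pair stood apart: the SD of its log2 replicate difference over genes was 0.457, against 0.148 to 0.2 in the other groups, and the difference followed transcript GC content (Spearman's rho across genes -0.776).

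In the mm10 coordinates of the deposited annotation, Pdgfra lies on the plus strand at chr5:75152291-75198204 with 6737 exonic bases in 2 transcripts. Pdgfa lies on the minus strand of the same chromosome at chr5:138976972-138994953 with 1018 exonic bases. Pdgfc (plus strand, chr3:81036416-81214031) has 3512 exonic bases, Pdgfd (plus strand, chr9:6168612-6377519) has 1795, and Pdgfb (minus strand, chr15:79995876-80014808) has 2942. The longest run of bases that a coding transcript of Pdgfra shared with one of Pdgfrb was 21, and 14 with Pdgfd, 13 with Pdgfa, 13 with Pdgfb and 12 with Pdgfc, so that fragments of Pdgfra and of its relatives are distinct in sequence.

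The 250 bases before the RefSeq start (GRCm38.p6, the build of mm10) are shown for the 3 members that were tested, since their mRNAs moved differently across the same cultures. Of the 6 members, 4 had a promoter in the RefSeq table. Pdgfa had 2 windows there, and the one nearer the deposited gene start was used. The RefSeq start lies 40 bases from the deposited gene start for Pdgfra, 9 for Pdgfa and 0 for Pdgfc. The windows lie at chr5:75152001-75152250 on the plus strand for Pdgfra, chr5:138994945-138995194 on the minus strand for Pdgfa and chr3:81036166-81036415 on the plus strand for Pdgfc. Each is written 5′ to 3′ on the strand of the gene, and capitals mark matches to any of 5 motifs, searched on both strands. The TATA box was searched as TATAAA, and the box bound by NF-Y was searched as CCAAT. The GC box of Sp1 was searched as GGGCGG, and the E-box of basic helix-loop-helix factors as CANNTG. The core shared by SOX and TCF factors was searched as ACAAAG.
Pdgfra: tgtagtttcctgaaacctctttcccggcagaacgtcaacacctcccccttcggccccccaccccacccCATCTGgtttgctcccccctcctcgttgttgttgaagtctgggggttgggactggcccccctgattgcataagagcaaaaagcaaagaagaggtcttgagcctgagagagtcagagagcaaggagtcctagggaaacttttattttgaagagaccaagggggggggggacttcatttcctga
Pdgfa: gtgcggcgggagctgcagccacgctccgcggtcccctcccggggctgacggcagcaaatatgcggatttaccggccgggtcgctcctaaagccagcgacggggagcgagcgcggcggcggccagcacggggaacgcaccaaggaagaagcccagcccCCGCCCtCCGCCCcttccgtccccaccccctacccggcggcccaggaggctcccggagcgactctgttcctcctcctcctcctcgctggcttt
Pdgfc: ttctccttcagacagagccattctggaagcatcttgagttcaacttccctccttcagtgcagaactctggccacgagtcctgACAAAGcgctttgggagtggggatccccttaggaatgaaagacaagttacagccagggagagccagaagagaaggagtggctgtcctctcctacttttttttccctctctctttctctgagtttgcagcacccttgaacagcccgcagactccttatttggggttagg
The window of Pdgfra held 1 E-box match (CATCTG, bases -182 to -177), a pattern found in 66.2% of 32817 promoter windows of that length. The window of Pdgfa, of 72.4% GC against a median of 52.4%, held 2 adjoining GC box matches (CCGCCC, bases -93 to -88 and -86 to -81), a pattern in 32.7% of windows. The window of Pdgfc held 1 ACAAAG match (bases -168 to -163), as did 16.5% of windows. TATAAA, found in 12.4% of windows, and CCAAT, found in 33.8%, matched none of the 3. These matches are a description of letters, and binding was not measured.

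Pdgfra, the receptor for PDGF-AA, was the most abundant member at Day0 and spanned more than any other member. Its level was 409 and 436 FPKM at Day0, 62.7 and 72.1 in non-treated, 61.3 and 62.9 in mock, 32.4 and 32.7 in NC siRNA #1, 47.0 and 44.3 in NC siRNA #2, 150 and 144 in siSbp2l, and 3.30 and 2.69 in siPdgfra. Among all genes it ranked 122nd and 114th at Day0, and 9236th and 9575th in siPdgfra. From high to low the order was Day0, siSbp2l, non-treated, mock, NC siRNA #2, NC siRNA #1 and siPdgfra, with group means of 422, 147, 67.4, 62.1, 45.6, 32.5 and 2.996 FPKM. Non-treated and mock overlapped and did not pass the test between them (adjusted p = 0.534, limma), while every other pair of neighbours was separate and passed, the narrowest being mock against NC siRNA #2 (adjusted p = 0.0126, limma) and NC siRNA #2 against NC siRNA #1 (adjusted p = 0.00545, limma).

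Pdgfa, which encodes the chains of PDGF-AA, ran from 5.56 FPKM at Day0 to 29.2 FPKM in siPdgfra. Its level was 5.56 and 5.89 FPKM at Day0, 26.0 and 12.2 in non-treated, 26.3 and 26.4 in mock, 15.9 and 18.1 in NC siRNA #1, 19.2 and 14.2 in NC siRNA #2, 22.5 and 22.05 in siSbp2l, and 28.9 and 29.2 in siPdgfra. Every Day3 library was above both Day0 libraries. The non-treated replicates, which differed by 1.03 on the log2 scale, ran from the lowest Day3 value to the level of mock. Pdgfa transcripts have 58.8% GC, the 92.0th percentile of the genes tested, and the part of GC content in that difference was not tested. In the order of group means (siPdgfra, mock, siSbp2l, non-treated, NC siRNA #1, NC siRNA #2, Day0) only the step from NC siRNA #2 to Day0 passed the test (adjusted p = 0.000508, limma).

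Pdgfc, the other alpha receptor ligand above the filter, was low and varied little outside siPdgfra. Its level was 1.78 and 2.00 FPKM at Day0, 1.79 and 1.91 in non-treated, 2.38 and 2.08 in mock, 2.25 and 1.85 in NC siRNA #1, 2.06 and 1.82 in NC siRNA #2, 2.40 and 2.45 in siSbp2l, and 3.69 and 3.78 in siPdgfra. The siPdgfra libraries stood above the other 12. Only the step from siPdgfra (mean 3.73 FPKM) to the next group, siSbp2l (mean 2.43 FPKM), passed the test between neighbours (adjusted p = 0.00250, limma). Beyond neighbours, siSbp2l was above non-treated by 0.27 ± 0.10 (SE, adjusted p = 0.0448, limma). With only the 12 Day3 libraries fitted, that difference did not pass (adjusted p = 0.0595, limma).

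**Figure D1:**
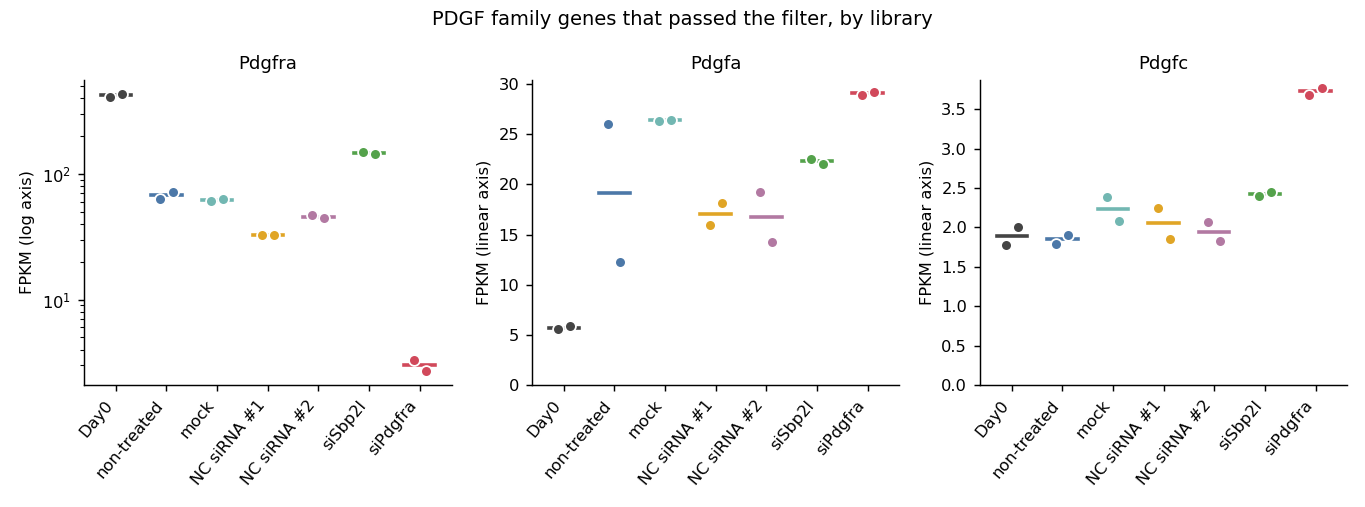
FPKM of Pdgfra (log axis), Pdgfa and Pdgfc (linear axes) in each library (points) with the group mean (bar), for the 7 groups of 2. Pdgfra runs from 436 FPKM at Day0 to 2.69 in siPdgfra, Pdgfa is lowest at Day0, and Pdgfc is highest in siPdgfra.

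Pdgfrb, Pdgfb and Pdgfd were at the edge of detection, and their values are given in fragments. Pdgfrb was listed at 0 in 12 of 14 libraries, with 1 fragment in NC siRNA #1 replicate 1 and 2 in siSbp2l replicate 2. A count of 0 allows up to 3 fragments, which for Pdgfrb is 0.0175 FPKM in the deepest library and 0.0845 in the shallowest, so that expression was not detectable at this depth. Pdgfb had 34 fragments over the 14 libraries, was at 0 in 5 of them and peaked at 8 fragments in NC siRNA #1 replicate 2 and siPdgfra replicate 2 (0.143 and 0.136 FPKM). Floors and counts cover counting error only, since PCR copies are not independent molecules.

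Pdgfd, whose product binds chiefly the beta receptor, was seen in all 14 libraries with 106 fragments in sum. It had 5 and 1 fragments at Day0 (0.0881 and 0.0248 FPKM) and 12 and 17 in non-treated (0.333 and 0.444 FPKM), and between 4 and 12 in the other libraries. In a fit without the filter, Pdgfd was higher in non-treated than in Day0 by 0.39 ± 0.09 (SE) on the log2(FPKM + 1) scale (adjusted p = 0.00480, limma over 16930 genes), and the other 5 comparisons of Pdgfd did not pass. No comparison of Pdgfb or Pdgfrb passed in that fit.

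**Figure D2:**
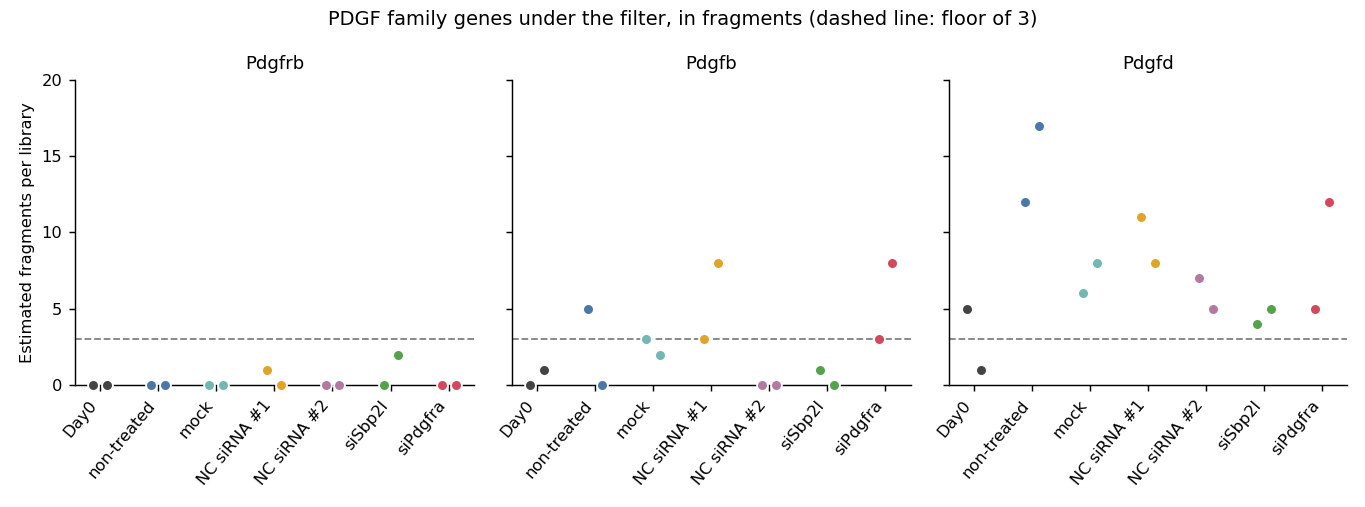
Estimated fragments of Pdgfrb, Pdgfb and Pdgfd in each library (points), with the floor of 3 fragments as a dashed line. Pdgfrb never exceeds 2 fragments, Pdgfb reaches 8, and Pdgfd reaches 17 in non-treated.

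Differentiation was addressed by comparing non-treated Day3 cells with Day0. The days differ in time in culture and, by the differentiation medium of the methods, in PDGF-AA and T3, which cannot be told apart here. Pdgfra fell and Pdgfa rose, while Pdgfc did not pass the test. Mean Pdgfra was 67.4 ± 6.62 FPKM in non-treated and 422 ± 18.9 at Day0 (SD, n = 2 each), a log2 change of -2.63 ± 0.10 (SE, adjusted p = 1.52e-09, limma), which is 84.0% lower on the FPKM scale. Mean Pdgfa was 19.1 ± 9.73 FPKM against 5.73 ± 0.236 (SD, n = 2 each), a log2 change of 1.49 ± 0.25 (SE, adjusted p = 0.000307, limma). The Pdgfc difference was -0.02 (95% interval -0.24 to 0.20, adjusted p = 0.865, limma). Since 1 was added to each FPKM before taking logs, these log2 changes are smaller than the true changes for low genes. Of the 11874 genes tested, 28.4% were higher and 38.6% lower at an adjusted p under 0.05, and 26.6% were called, that is, changed by at least 2-fold as well. Against this background, 2 of the 3 tested members were called, in opposite directions. The Pdgfa call depended on the non-treated library kept: the log2 change was 0.98 without replicate 1, which is under 2-fold though changed (adjusted p = 4.85e-05, limma), and 2.01 without replicate 2 (adjusted p = 1.18e-07, limma).

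Markers of other cells moved from Day0 to non-treated as well. Of 5 tested astrocyte markers, 4 rose, and the list summed to 66.9 to 69.3 FPKM at Day0 and 143 to 173 in non-treated, with Gfap at 0.716 and 46.3 FPKM on average. Of 4 tested neuron markers, 1 rose and 2 fell, with sums of 27.6 to 29.5 and 48.8 to 88.5 FPKM. Both tested pericyte and smooth muscle markers rose, and that list summed to 8.04 to 8.64 and 12.9 to 17.6 FPKM. Neither tested microglia marker passed, and the sums were 2.42 to 2.87 and 2.09 to 2.93 FPKM. The part of these cells in the Pdgfra and Pdgfa differences was not tested.

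**Figure D3:**
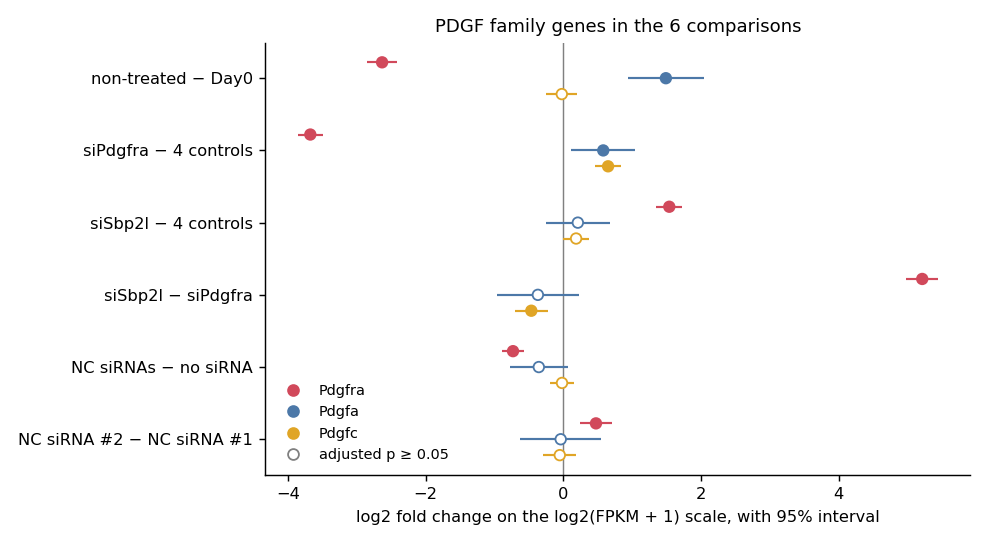
log2 fold changes of Pdgfra, Pdgfa and Pdgfc in the 6 comparisons (points, with 95% intervals from limma as bars; open points did not pass an adjusted p of 0.05). Pdgfra passes in all 6, with values from -3.68 (siPdgfra against controls) to 5.22 (siSbp2l against siPdgfra).

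The shift between receptor and ligand mRNA was large. The 4 ligands summed to 7.43 and 7.93 FPKM at Day0, of which Pdgfa made up 74.3% to 74.8% and Pdgfc 23.99% to 25.2%. In the Day3 groups the sum lay between 14.6 and 33.5 FPKM, with Pdgfa at 83.9% to 92.2% of it. The ratio of Pdgfra to the summed ligands was 54.9 and 55.0 at Day0, 2.22 to 4.94 in non-treated, 5.86 to 5.98 in siSbp2l and 0.0804 to 0.101 in siPdgfra. Ratios of mRNA levels say nothing of protein.

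**Figure D4:**
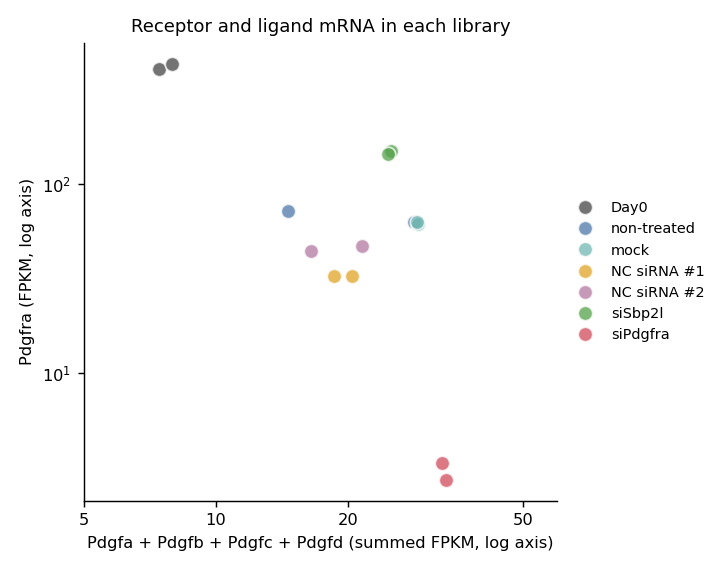
Pdgfra FPKM against the summed FPKM of Pdgfa, Pdgfb, Pdgfc and Pdgfd (both log axes), 1 point per library, coloured by group; a non-treated point lies behind those of mock. Day0 sits at 7.43 to 7.93 FPKM of ligand with 409 to 436 FPKM of receptor, and siPdgfra at 32.8 to 33.5 FPKM of ligand with 2.69 to 3.30 FPKM of receptor.

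Genes of the PDGF pathway are given by role, from lists chosen with results of these data in view. The ERK feedback and target genes, which the RAS to ERK cascade induces, fell in 14 of 15 cases from Day0 to non-treated and 12 were called, with a median log2 change of -1.96 against -0.12 over all genes. Of all genes tested there, 38.6% were lower and 26.6% were called. The transcription factor Egr1 changed by -5.40 ± 0.18 (SE), cyclin D1 (Ccnd1) by -4.27 ± 0.09, the feedback inhibitor Spry4 by -3.899 ± 0.14 and the ERK phosphatase Dusp6 by -3.40 ± 0.11. Dusp5 was the gene that did not pass. With mock in place of non-treated, 13 were lower and 1 was higher. Among receptor partners at the surface, the NG2 proteoglycan gene Cspg4 changed by -2.94 ± 0.14, the integrin gene Itgav by -1.10 ± 0.17 and the endocytic receptor gene Lrp1 by -1.002 ± 0.13, while the co-receptor gene Nrp1 rose by 0.35 ± 0.11.

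The other steps of the pathway moved both ways from Day0 to non-treated. Over all genes tested, 28.4% were higher and 38.6% lower, and the list counts were not tested against such shares. Of 4 tested genes for ligand processing, Plau and Plat, whose protease products act on PDGF-DD and PDGF-CC, rose by 2.76 ± 0.12 and 1.74 ± 0.10 (SE). Of 31 tested effectors, 9 rose and 10 fell, with Mapk3 (ERK1) higher by 2.79 ± 0.16, the kinase gene Fyn by 1.70 ± 0.09 and the phosphatase gene Ptpn11 by 1.52 ± 0.08, and Pik3cb lower by 1.63 ± 0.10. Of 9 tested attenuators, 6 fell and 1 rose. The ubiquitin ligase gene Cbl fell by 1.40 ± 0.16 and Lrig1, which restrains receptor tyrosine kinases, rose by 2.12 ± 0.10. With upper-quartile scaling 3 attenuators fell and 1 rose.

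**Figure D5:**
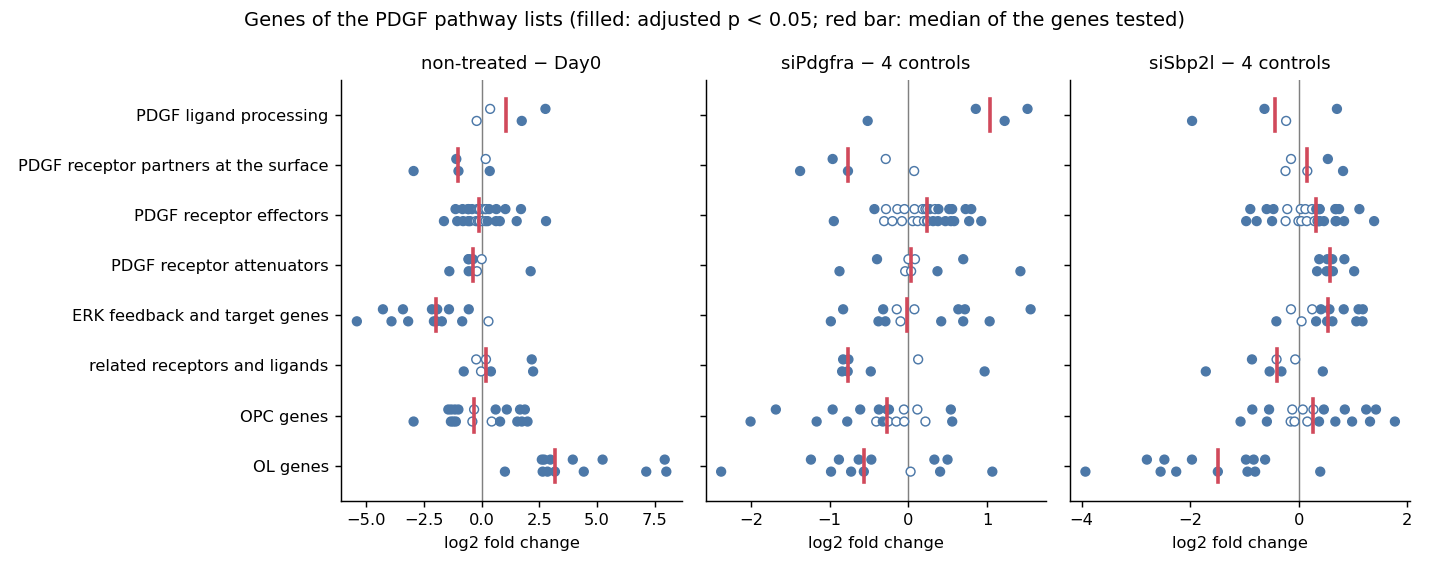
log2 fold changes of the tested genes (points) of 8 pathway and lineage lists in 3 comparisons, filled where the adjusted p is under 0.05, with the median of each list as a red bar; the horizontal scales differ between panels. ERK feedback and target genes other than Dusp5 lie below 0 in non-treated against Day0, with a list median of -1.96, and have medians of -0.01 in siPdgfra and 0.55 in siSbp2l.

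The siPdgfra libraries were compared with the 4 Day3 control groups (non-treated, mock, NC siRNA #1 and NC siRNA #2, 8 libraries in all). The targeted gene was low in both libraries, at 3.30 and 2.69 FPKM against 32.4 to 72.1 FPKM in the 8 control libraries, and the alpha receptor ligands Pdgfc and, less surely, Pdgfa were higher. Pdgfra changed by -3.68 ± 0.08 (SE, adjusted p = 6.48e-09, limma), which is 94.2% lower on the FPKM scale, and by -3.07 to -4.10 against each control group alone. Enough fragments remained (476 and 363) to place the residual level well above the floor. The siRNA sequence was not used here, so its site within Pdgfra is not given.

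Pdgfc was higher in siPdgfra by 0.65 ± 0.08 (SE, adjusted p = 0.000125, limma), or 84.8% on the FPKM scale, and the difference passed against each control group alone (adjusted p from 0.000330 to 0.00219, limma). Pdgfa was higher by 0.58 ± 0.21 (SE, adjusted p = 0.0382, limma), with means of 29.1 and 19.8 FPKM, and both siPdgfra libraries were above all 8 control libraries. Whether Pdgfa passed depended on the controls: the difference was 0.14 ± 0.27 against mock (adjusted p = 0.706, limma), and it did not pass against non-treated alone (adjusted p = 0.0584, limma) or without most single libraries (adjusted p up to 0.167, limma). Of the 11650 genes tested, 32.4% were higher, 23% were lower and 7.99% were called.

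Along the pathway, siPdgfra libraries showed changes in both directions. Of 14 tested ERK feedback and target genes, 6 were higher and 5 lower, with a median of -0.01 against 0.09 over all genes. Dusp5 rose by 1.55 ± 0.19 (SE) and the RAS inhibitor gene Spred2 by 1.03 ± 0.08, while Egr1 fell by 0.99 ± 0.14 and Etv4 by 0.83 ± 0.12. Receptor partners fell in 3 of 5 cases, Lrp1 by 1.38 ± 0.11, Cspg4 by 0.96 ± 0.11 and Itgb3 by 0.77 ± 0.10, and none rose. Itgb3 was 1.48 FPKM in siPdgfra, 1.47 in non-treated, 2.23 in mock, and 5.90 and 4.75 in NC siRNA #1 and NC siRNA #2, so that siPdgfra and non-treated were at nearly the same level.

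The 4 tested genes for ligand processing all passed. St14, a membrane protease gene, rose by 1.52 ± 0.11 (SE), Plau by 1.22 ± 0.10 and the proprotein convertase gene Furin by 0.86 ± 0.15, and Plat fell by 0.52 ± 0.08. St14 reached the filter only through siPdgfra, so its rise was in part fixed by the filter. Its means were 2.92 FPKM in siPdgfra, 1.06 in NC siRNA #1 and 0.133 to 0.233 in the other controls. Plau also differed between the non-targeting siRNAs, with 1.52 FPKM in NC siRNA #2 and 8.84 in NC siRNA #1 (adjusted p = 5.16e-06, limma). Of 31 tested effectors, 13 rose and 2 fell (19 and 7 without the non-treated group), against 32.4% higher and 23% lower over all genes. Among them Crk rose by 0.93 ± 0.09, Nras rose by 0.80 ± 0.10 and Fyn fell by 0.95 ± 0.07. Crk was 94.2 FPKM in siPdgfra, 22.2 in NC siRNA #1 and 59.4 to 67.2 in the other controls. Fyn also fell by 0.72 ± 0.07 in the NC siRNAs against non-treated and mock. Of 9 tested attenuators, 3 rose and 2 fell, with the phosphatase gene Ptprj up by 1.42 ± 0.08 and Lrig1 down by 0.88 ± 0.08.

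Related receptors and ligands fell in 5 of 7 cases and rose in 1. Kit, a receptor gene of the same class on chromosome 5, rose by 0.97 ± 0.09 (SE), whereas the ligand genes Vegfa, Csf1 and Pgf fell by 0.84 ± 0.11, 0.83 ± 0.11 and 0.77 ± 0.13. Vegfa also fell by 0.89 ± 0.10 in the NC siRNAs against non-treated and mock (adjusted p = 0.000157, limma). Its mean was 5.51 FPKM in siPdgfra and 5.94 in NC siRNA #1. Kit was itself 3.76 FPKM in NC siRNA #2 and 9.60 in NC siRNA #1. Of 19 tested OPC genes, 10 fell and 2 rose, with Lhfpl3 down by 2.01 ± 0.18 and Bcan by 1.68 ± 0.17. As a set this list does not follow the precursor stage, since 8 of its genes rose and 8 fell from Day0 to non-treated. Lhfpl3 was 72.2 FPKM at Day0, 222 in non-treated and 45.2 in siPdgfra, and Bcan was 63.5, 209 and 56.2. Of 13 tested OL genes, 8 fell and 4 rose, with the myelin genes Mag down by 2.38 ± 0.17 and Mobp down by 0.98 ± 0.10. Mobp was itself 5.49 FPKM in NC siRNA #2 and 102 in NC siRNA #1. Ermn rose by 1.07 ± 0.11, at 5.96 FPKM in siPdgfra, 13.8 in NC siRNA #1 and 0.307 to 1.65 in the other controls.

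Markers of other cells moved with siPdgfra too. All 5 tested astrocyte markers were lower, and the 7 astrocyte markers summed to 47.8 to 48.9 FPKM in siPdgfra against 103 to 177 in the controls. The 8 neuron markers summed to 237 to 241 FPKM in siPdgfra against 48.8 to 277 in the controls, mostly Tubb3. The 7 microglia markers summed to 6.87 to 8.28 FPKM in siPdgfra, 1.87 to 2.93 in non-treated and mock, 10.4 in both NC siRNA #1 libraries and 4.50 to 5.06 in NC siRNA #2. Endothelial markers stayed below 1 FPKM in sum and fibroblast markers below 0.2. The part of these cells in the Pdgfa and Pdgfc differences was not tested, and in bulk libraries fewer cells of a type and less RNA per cell cannot be told apart.

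The siSbp2l libraries were set against the same 4 control groups. Pdgfra rose to 150 and 144 FPKM, above all 8 control libraries, while Pdgfa and Pdgfc did not pass. The Pdgfra change was 1.54 ± 0.08 (SE, adjusted p = 4.73e-07, limma), or 183% more on the FPKM scale, and the level remained under that of Day0 (difference 1.51 ± 0.10, adjusted p = 1.58e-07, limma). Pdgfa differed by 0.21 (95% interval -0.26 to 0.68, adjusted p = 0.415, limma) and Pdgfc by 0.19 (95% interval -0.0013 to 0.37, adjusted p = 0.0866, limma). Without non-treated replicate 1, which had 26.0 FPKM of Pdgfa, the Pdgfa difference was 0.34 and passed (adjusted p = 0.00622, limma). Secisbp2l itself was at 3.91 and 3.82 FPKM in siSbp2l against 135 to 255 in the control libraries. Of 11650 genes tested, 35.5% were higher, 17.9% were lower and 7.19% were called, and the median over all genes was 0.15. With median-ratio scaling, which brings that median to 0.00, 22.5% were higher and 24.6% lower, and the Pdgfra change was 1.37.

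In siSbp2l, of 14 tested ERK feedback and target genes, 10 rose and 1 fell, with a median of 0.55, and 8 rose and 2 fell with median-ratio scaling. Myc rose by 1.18 ± 0.13 (SE), Spry1 by 1.18 ± 0.10, Spred2 by 1.10 ± 0.08 and Etv1 by 1.06 ± 0.13. All 9 tested attenuators rose, but 6 did with median-ratio scaling and 7 with upper-quartile scaling. The ubiquitin ligase gene Cblb rose by 1.02 ± 0.11 and the phosphatase gene Ptpn12 by 0.84 ± 0.09.

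Of 31 tested effectors, 15 rose and 6 fell in siSbp2l (12 and 8 with median-ratio scaling). Over all genes tested there, 35.5% were higher and 17.9% lower (22.5% and 24.6% with that scaling). Pik3r1 rose by 1.12 ± 0.10 (SE), whereas Sos2 fell by 0.97 ± 0.11 and Mapk3 by 0.89 ± 0.14. Of the ligand processing genes Plau fell by 1.97 ± 0.10 and Plat by 0.63 ± 0.08, and Furin rose by 0.71 ± 0.15. Among the partners Lrp1 rose by 0.82 ± 0.11 and Nrp1 by 0.54 ± 0.09.

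Of the related genes, 4 of 7 fell and 1 rose in siSbp2l, with a change of -1.71 ± 0.11 (SE) for Vegfa and -0.86 ± 0.11 for Csf1. OPC genes, which moved both ways from Day0 to non-treated, rose in 9 and fell in 4 of 19 cases. Among them Id2, an inhibitor of DNA binding, rose by 1.77 ± 0.09 and the proteoglycan gene Vcan by 1.43 ± 0.13. OL genes fell in 12 and rose in 1 of 13 cases, with a change of -3.93 ± 0.14 for Tspan2. Of the 5 tested astrocyte markers, 3 fell and 1 rose, and the list summed to 125 to 132 FPKM in siSbp2l against 103 to 177 in the controls. All 3 tested neuron markers rose, but Rbfox3 reached the filter only through siSbp2l (mean 1.15 FPKM, 0.105 to 0.527 in the other Day3 groups). Snap25, under the filter at Day3, was 0.215 FPKM in siSbp2l and 0.371 to 0.697 in the controls. The neuron list summed to 201 to 202 FPKM against 48.8 to 277, mostly Tubb3, at 194 in siSbp2l and 270 in NC siRNA #1. The microglia list summed to 3.72 to 4.88 FPKM, with neither tested marker past the threshold.

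The knockdowns were compared with each other as well, with no control in the difference. Pdgfra was higher in siSbp2l by 5.22 ± 0.11 (SE, adjusted p = 2.95e-09, limma) and Pdgfc was lower by 0.46 ± 0.11 (adjusted p = 0.00444, limma). Pdgfa differed by -0.37 (95% interval -0.96 to 0.22, adjusted p = 0.27, limma). Of 11650 genes, 28.5% were higher, 23.4% were lower and 13.7% were called. ERK feedback and target genes were higher in 8 and lower in 1 of 14 cases, with Egr1 up by 1.55 ± 0.18 (SE) and Dusp5 down by 1.30 ± 0.24. Receptor partners were higher in 4 of 5 cases, with Lrp1 up by 2.19 ± 0.14 and Cspg4 by 1.12 ± 0.14, and OPC genes were higher in 12 and lower in 2 of 19.

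Non-targeting siRNAs moved Pdgfra too, which sets the scale for the knockdown values. The NC siRNA groups averaged 39.1 FPKM of Pdgfra against 64.7 in non-treated and mock, a change of -0.73 ± 0.07 (SE, adjusted p = 9.69e-05, limma), which on the FPKM scale fell by 39.6%, and all 4 NC libraries were below all 4 libraries without siRNA. Pdgfa differed by -0.36 (95% interval -0.77 to 0.06, adjusted p = 0.186, limma) and Pdgfc by -0.02 (95% interval -0.19 to 0.15, adjusted p = 0.882, limma). In this comparison 16.3% of genes were higher, 11.8% were lower and 1.28% were called, and with upper-quartile scaling 12.8% were higher and 15.6% lower. ERK feedback and target genes fell in 8 of 14 cases and rose in none, with Ccnd1 lower by 1.21 ± 0.07 (SE) and Etv5 by 0.97 ± 0.09 (11 of 14 without the non-treated group). Itgb3 rose by 1.16 ± 0.09.

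The non-targeting siRNAs also differed from each other. Pdgfra was higher in NC siRNA #2 than in NC siRNA #1 by 0.48 ± 0.11 (SE, adjusted p = 0.00964, limma). Without single libraries the adjusted p of this difference ran from 0.0449 to 0.0803. Pdgfa differed by -0.04 (95% interval -0.63 to 0.55, adjusted p = 0.945, limma) and Pdgfc by -0.05 (95% interval -0.29 to 0.19, adjusted p = 0.8, limma). Between them 10.8% of genes were higher, 10.1% were lower and 3.99% were called. The ERK feedback and target genes Fos and Myc were higher in NC siRNA #2 by 0.99 ± 0.12 and 0.98 ± 0.16 (SE), and Crk was higher by 1.51 ± 0.11. The pericyte and smooth muscle list summed to 36.4 to 38.0 FPKM in NC siRNA #1 and 7.87 to 8.27 in NC siRNA #2, mostly Mcam, and the microglia list to 10.4 and to 4.50 to 5.06 FPKM. The part of both lists in the Pdgfra difference was not tested.

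Within 1 Mb of Pdgfra lay 12 other annotated genes, of which 8 were tested. None was called in siPdgfra, where 5 rose and 1 fell. Over all genes tested there, 7.99% were called, 32.4% were higher and 23% lower. The counts near Pdgfra were not tested against such shares. Chic2, whose end lies 108 kb from Pdgfra, was higher by 0.99 ± 0.10 (SE) and Kit, 377 kb away, by 0.97 ± 0.09, and Kdr, the VEGF receptor gene at 735 kb, was lower by 0.48 ± 0.08. In siSbp2l 4 rose and 3 fell, against 35.5% and 17.9% of all genes tested. Fip1l1 rose by 0.49 ± 0.10, Lnx1 by 0.48 ± 0.16, Chic2 by 0.47 ± 0.10 and Tmem165 by 0.28 ± 0.06. The changes of the genes that fell were -0.65 ± 0.13 for Srd5a3, -0.54 ± 0.08 for Kdr and -0.32 ± 0.09 for Kit. Kit, at 6.45 FPKM in siSbp2l, was not below every control, with 3.76 in NC siRNA #2 and 9.60 in NC siRNA #1. From Day0 to non-treated 5 of the 8 fell and 1 rose, and Lnx1, Scfd2 and Fip1l1 were called, with Lnx1 down by 2.27 ± 0.19. Over all genes tested in that comparison, 38.6% were lower, 28.4% higher and 26.6% called. Gsx2 and Gm19583, which lie nearer than Chic2, were at or near 0.

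The genes whose 7 group means followed those of Pdgfra most closely were Creld2, Aatf, Acn9, Fam120c and Zfp36l1, with Pearson's r from 0.986 to 0.991 among 6421 genes whose means spanned at least 1 on the log2 scale. Zfp36l1, for an mRNA-binding protein, was 43.7 FPKM at Day0, 31.2 in siSbp2l and 4.94 in siPdgfra. The genes most opposed to Pdgfra were Tmem169, 2810032G03Rik, Cdkl2, Car4 and 2610019F03Rik, with r from -0.997 to -0.980, and Tmem169 ran from 1.60 FPKM at Day0 to 10.96 in siPdgfra. For 2810032G03Rik, Cdkl2 and Car4 only the siPdgfra mean was above 1 FPKM. The filter thus favoured low genes that were high in siPdgfra, where Pdgfra was the target. These values of r are descriptions over 7 points that share their libraries, picked as extremes.

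Pdgfa was most closely followed by Wnt7b, Il4i1, Arhgef10l, Atp6v1g1 and Lrp4 (r from 0.972 to 0.983), and the Wnt ligand gene Wnt7b rose from 0.294 FPKM at Day0 to 5.56 in siPdgfra. Pdgfc was most closely followed by Zbtb16, Scube3, Kcna4, 2700090O03Rik and Epha3 (r from 0.981 to 0.989), all highest in siPdgfra. All but Zbtb16 reached the filter only through siPdgfra, so their likeness to Pdgfc was in part fixed by the filter. The transcription factor gene Zbtb16 was at 9.15 FPKM in siPdgfra and 2.39 to 4.08 in the other groups. Between members, r over the 7 group means was -0.71 for Pdgfra and Pdgfa, -0.75 for Pdgfra and Pdgfc, and 0.60 for Pdgfa and Pdgfc.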

How the data were processed

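mRNA was sequenced from 14 libraries, 2 per group, and the groups and replicate numbers came from the labels. The deposited table is titled as counts but holds FPKM, which the authors computed with OmicSoft ArrayStudio on the mm10 refGene model (aligner and counting settings not given in the sources used here). These values are not counts, so no count test was run. The deposited columns of the authors' own comparisons, fold changes and p-values for siSbp2l, were not used, and only the annotation beside them was. The 2 non-treated columns, named by day alone, were matched to their group by elimination, and a misspelled name was matched to siSbp2l.

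Depth came from the steps of FPKM times exon length, where 88.7% to 92.4% of low values of single-transcript genes were whole (within 0.1). Two-sided tests used limma (version 3.58.1, R version 4.3.3) after FPKM values had 1 added and were put on a log2 scale, with trend and robust moderation, adjusted by Benjamini-Hochberg over all genes with at least 1 FPKM in at least 2 libraries. The 12 Day3 libraries shared a fit (6 residual degrees of freedom), and all 14 were fitted for Day0 and for the 21 pairs of groups. The fit was tested on simulated data. The methods state 2 independent cultures, but labels do not tie libraries to animals, so the spread may be in part technical.

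Named genes were all members, up to 4 changed genes with the largest change per list and comparison, the 5 genes most like each tested member (for Pdgfra also the 5 least like), genes within 1 Mb of Pdgfra and marker genes. Some genes that this rule names are not reported here. Members and lists were chosen with earlier results of these data known. Other pseudocounts (0.1 and 5), filters, scalings, controls and left-out libraries were tried. Promoters are from RefSeq, GRCm38.p6.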

Additional observations from a re-analysis of the deposited data

How the results depend on the processing

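Among the members, every Pdgfra change kept its direction under each alternative run, and the fall of Pdgfra from Day0, the rise of Pdgfa from Day0 and the rise of Pdgfc in siPdgfra also kept an adjusted p under 0.05. The rise of Pdgfa from Day0 ran from 0.98 to 2.01 when single libraries were left out, and was under 2-fold without non-treated replicate 1. Pdgfa in siPdgfra was not past the threshold without the filter (0.58, adjusted p = 0.0627, limma), with upper-quartile scaling (0.49), with only the compared groups fitted (0.58), against non-treated (0.67) or against mock (0.14), and ran from 0.45 to 0.71 when single libraries were left out. With only the 2 knockdowns fitted, Pdgfa was lower in siSbp2l by the same difference of -0.37 and passed (adjusted p = 0.00371, limma), with fewer libraries behind the spread. Leaving out single libraries, Pdgfa in siSbp2l ran from 0.0831 to 0.34 (adjusted p = 0.00622 without non-treated replicate 1, limma), Pdgfa in the NC siRNAs from -0.61 (adjusted p = 0.000261 without non-treated replicate 2, limma) to -0.10, and Pdgfra between NC siRNA #2 and NC siRNA #1 from 0.43 to 0.52, which missed the threshold in 3 of 4 cases. The cause was not tested.

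The numbers of genes called moved most with the pseudocount. Against 3157, 931, 838, 1592, 149 and 465 called in the order of the report (Day0, siPdgfra, siSbp2l, both knockdowns, NC siRNAs, NC siRNA pair), a pseudocount of 5 gave 1915, 382, 392, 694, 33 and 196, and one of 0.1 gave 1527 for siPdgfra, 1376 for siSbp2l, 399 for the NC siRNAs and 775 for the NC siRNA pair. Correlations of replicate differences between groups ran from -0.38 to 0.47. These differences also followed transcript GC content (Spearman's rho from -0.776 in non-treated to 0.449 in NC siRNA #1). They therefore cannot settle whether replicate numbers pair the samples. The replicate block changed no call of a member: Pdgfra in siPdgfra stayed at -3.68 and 930 genes were called. List counts under other scalings and without the non-treated group were added after seeing the data.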
